A study of Mus musculus with 12 samples.

Results

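Skeletal muscle turns an electrical signal into contraction by releasing calcium from the sarcoplasmic reticulum, and Casq1, with 9 of the genes whose products work beside it, is described here in C2C12 myoblasts that were silenced for Bach1 and taken into differentiation. The gene set held Casq1, Casq2, Ryr1, Atp2a1, Atp2a2, Trdn, Jph1, Jph2, Sln and Cacna1s, which are 10 of the 27306 gene symbols on the array. All 16 probes that carry these symbols in the deposited table were taken, whatever their values. Casq1 was chosen by its measured fall with Bach1 silencing at day 2, so every value of Casq1 that uses the arrays of day 2 is given as a description without a test. The other 9 genes, called partners below and measured by 15 probes, were listed for their function, though with earlier results of these data known, and were tested.

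In resting muscle, calsequestrin (Casq1 in fast fibres, Casq2 in heart and slow fibres) holds calcium inside the terminal cisternae of the sarcoplasmic reticulum and is tethered by triadin to the ryanodine receptor, the release channel. The voltage sensor in the transverse tubule, whose pore-forming subunit is Cacna1s, opens that channel directly, and junctophilins hold the membranes of tubule and reticulum close together. The SERCA pumps Atp2a1 and Atp2a2 then return calcium to the reticulum, and the small membrane protein sarcolipin (Sln) inhibits them. In culture, C2C12 myoblasts acquire this machinery as they differentiate and fuse into myotubes.

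C2C12 is a mouse myoblast line from C3H muscle, and the study used it as a model of satellite cell differentiation. Cells were transfected with siControl, a negative control siRNA, or with siBach1, an siRNA against the transcriptional repressor Bach1, and RNA was taken without induction (day 0) or on day 2 after the medium was changed to DMEM with 2% horse serum at confluence. Thus all 4 groups had been transfected, both day 2 groups had also been moved to horse serum, and each group had 3 arrays. The study's methods give the experiments as triplicates. Neither they nor the labels say whether the replicates were separate cultures, and p-values therefore measure the spread between these arrays, which may be technical.

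Values are log2 of the scanner's processed signal relative to the 75th percentile of the same array, so that 0 means a signal at that percentile and 1 means a signal 2-fold above it. The signal at the 75th percentile was between 325.5 and 534.4 units, no spot was saturated, and each array detected 47.6% to 58.9% of the 56605 probes, where detected means that the scanner called the spot well above its background. Probes detected on every array of some group, 29664 in all, were tested together with limma, and a probe passed at a Benjamini-Hochberg adjusted p under 0.05. All 16 probes were among them, and 12 of the 16 were detected on all 12 arrays. The exceptions were the probes of Casq1 and Sln and 1 probe each of Casq2 and Ryr1. Of these, Sln entered the tested probes only through the siBach1 arrays of day 2, the group where it is highest, so its values are given as descriptions and its p-values support nothing.

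The Bach1 probe checked the labels. It read 1.73, 1.55 and 1.78 in siControl cells at day 0 against 0.18, -0.22 and -0.22 in siBach1 cells, and 2.56, 2.55 and 2.58 against 0.57, 0.56 and 0.65 at day 2. The groups did not overlap at either day, and Bach1 was lower with siBach1 by 3.42-fold at day 0 (adjusted p = 1.2e-05) and by 3.91-fold at day 2 (adjusted p = 1.4e-05, limma). Of 4 myoblast markers, Myod1, Des and Cdh15 were detected on all 12 arrays and Myf5 on 8. All 6 markers of differentiating muscle (Myog, Myh3, Ckm, Acta1, Tnnt3 and Mymk) were detected on every array. Cardiac markers summed to at most 0.553 times the 75th percentile signal, adipocyte markers to at most 0.420 and osteoblast markers to at most 1.90. Cardiac Nkx2-5 and osteoblast Sp7 (A_66_P117454) and Alpl (A_66_P134078) were nevertheless detected on all 12 arrays. Day 2 means in siControl and siBach1 cells were -1.96 and -2.13 for Nkx2-5, 0.03 and 0.08 for Sp7, and -2.78 and -2.7 for Alpl. Osteoblast Bglap (A_55_P2106800) averaged -3.33 and -1.42, detected on 2 and 3 of the 3 arrays.

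The level of differentiation markers moved with the siRNA as well as with the day. Their signal, summed over 6 genes and given as multiples of the 75th percentile, was 32.6 to 49.4 in siControl and 28.5 to 43.1 in siBach1 cells at day 0. At day 2 it was 1107 to 1197 in siControl and 704 to 863 in siBach1 cells, so that the groups overlapped at day 0 and lay apart at day 2. The summed myoblast markers were 89.5 to 97.5 and 114 to 118 at day 0, and 173 to 191 and 149 to 165 at day 2. The part of these shifts in the results that follow was not tested. In RNA from whole cultures, fewer cells of a type and less RNA per cell cannot be told apart.

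Casq1 encodes the main calcium-binding protein of the fast-fibre reticulum, and its single probe (A_55_P2856642) read -3.04, -3.72 and -3.35 in siControl cells at day 0 and -3.20, -3.47 and -4.19 in siBach1 cells. At day 2 the siControl arrays gave 1.48, 1.95 and 1.61, and the siBach1 arrays -0.84, -0.42 and -1.03. The siRNA groups overlapped at day 0 and stood apart at day 2, where each siBach1 array was still above every array of day 0. It was detected on all arrays but 1 of siBach1 at day 0.

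At day 0 the silencing effect on Casq1, which the choice of the gene did not use, was -0.25 on the log2 scale (95% confidence interval -0.85 to 0.35, adjusted p = 0.59, limma) and did not pass. With a normexp background correction in place of the scanner's own, the day 0 difference was 0.06. As a description, the day 2 level was 5.43-fold lower in siBach1 than in siControl cells, a log2 difference of -2.44 with a standard error of 0.27. The difference at day 2 was -2.34 on the slide that held replicates 1 and 2 and -2.64 on the slide of replicate 3. Casq1 rose 33.1-fold from day 0 to day 2 in siControl cells and 7.25-fold in siBach1 cells, or by 5.05 and 2.86 on the log2 scale, and under normexp these rises were 3.78 and 1.51.

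**Figure D1:**
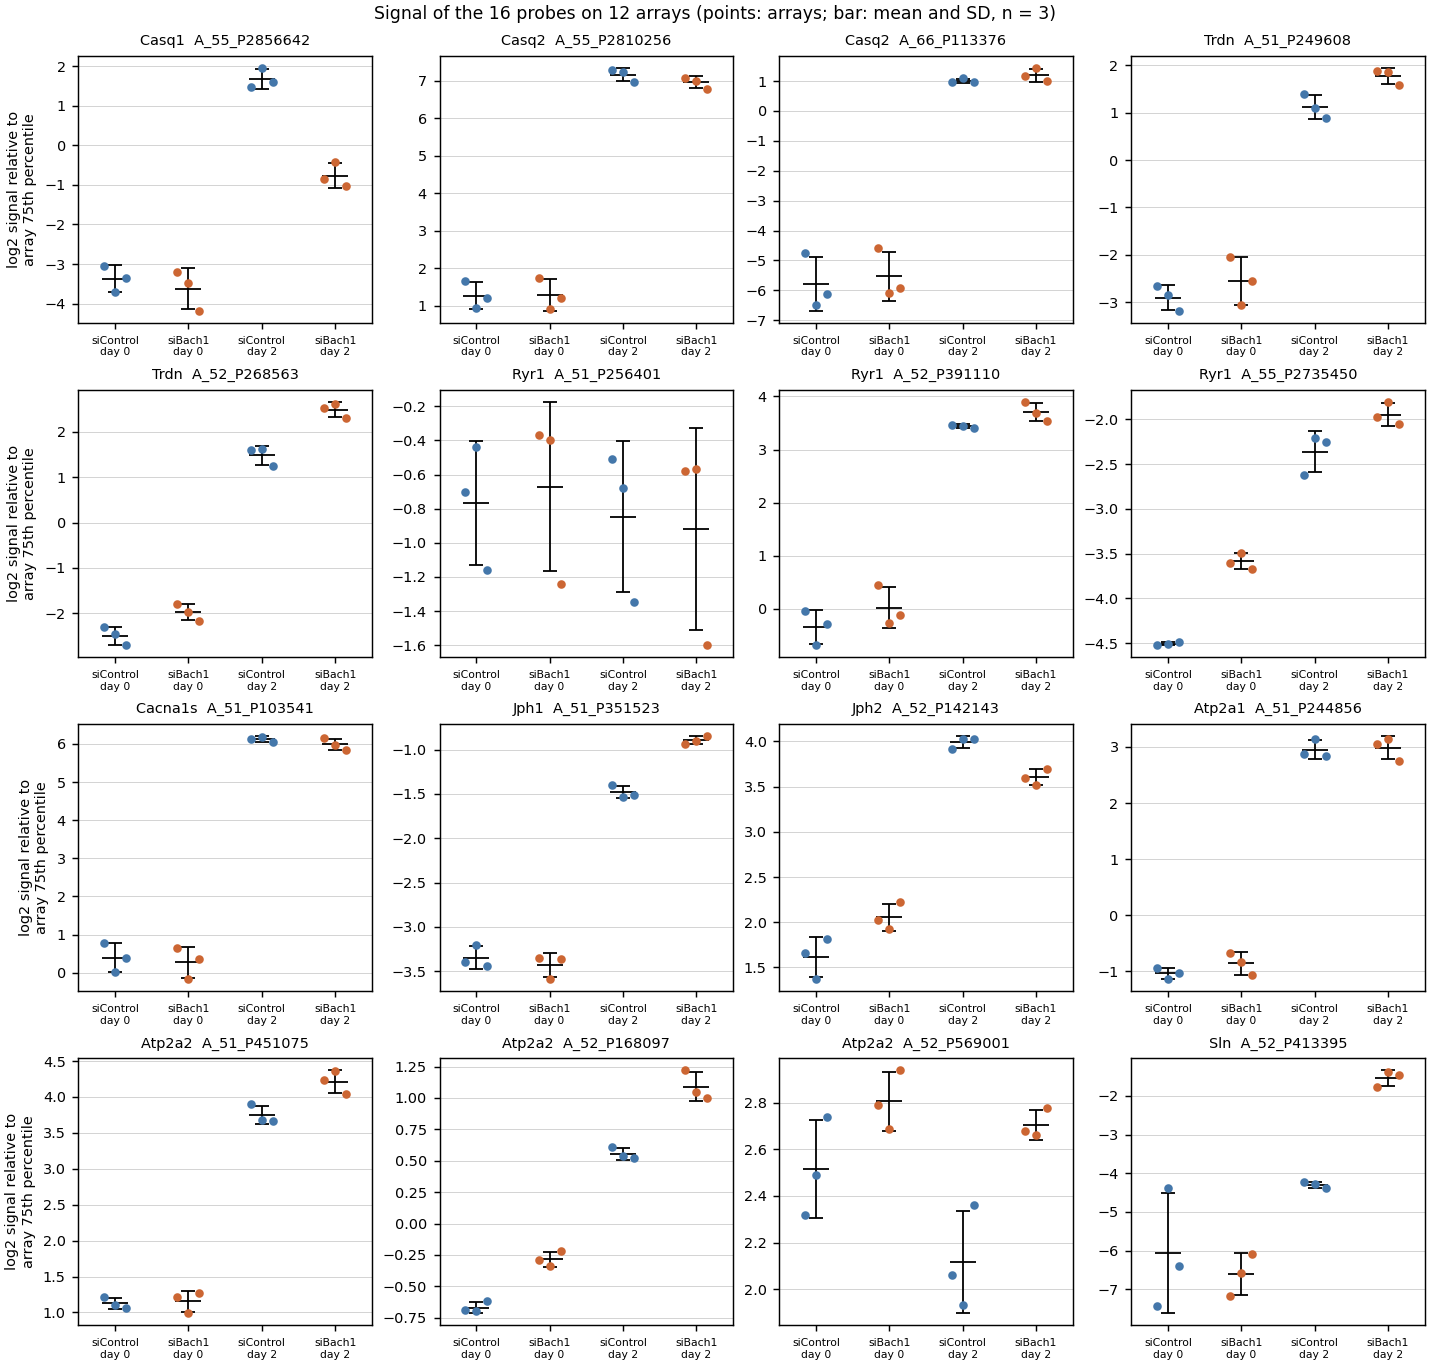
Signal of the 16 probes on 12 arrays, in log2 units relative to the 75th percentile of the array; each point is an array, blue for siControl and orange for siBach1, with the mean and SD of 3 arrays in black, and each panel has its own axis. Casq1 lies between 1.48 and 1.95 in siControl cells at day 2 and between -1.03 and -0.42 in siBach1 cells, while both Casq2 panels overlap.

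More partner probes were higher than lower with silencing at day 2. Without Sln, 6 of the 14 probes were higher in siBach1 than in siControl cells, where 5.75% of all tested probes were, and 0 were lower, where 6.26% of all tested probes were (limma). These 6 probes belonged to 4 genes, Atp2a2, Jph1, Ryr1 and Trdn. The median difference of the 14 probes was 0.34 on the log2 scale, against -0.01 over all tested probes. With Sln the count was 7 of 15 and the median 0.42. At an unadjusted p under 0.05, 8 of the 15 were higher and 1, Jph2, was lower, both in limma (12.7% and 14.6% of all tested probes) and in the test that the study's methods name (11.3% and 12.9%). That test after Benjamini-Hochberg adjustment left Jph1 and Sln higher and 0 lower, against 1.59% and 2.11%. The lowest log2 difference of a partner probe was -0.39, at Jph2. When the replicate number was a block, Jph2 passed as lower (adjusted p = 0.020, limma). Trdn probe A_51_P249608 then passed as higher too (adjusted p = 0.036). In that fit 9.78% of all tested probes were higher and 11.6% lower.

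The day 0 comparison included Casq1. Of the 16 probes, 4 were higher in siBach1 cells, against 8.8% of all tested probes, and 0 were lower, against 8.32% (limma). The 4 belonged to Atp2a2, Jph2, Ryr1 and Trdn, and the median over the 16 was 0.22 where that of all tested probes was 0.09. At an unadjusted p under 0.05 the counts were again 4 and 0 in limma, against 18.2% and 12.9%, and in the methods' test, against 15.7% and 12.5%.

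**Figure D2:**
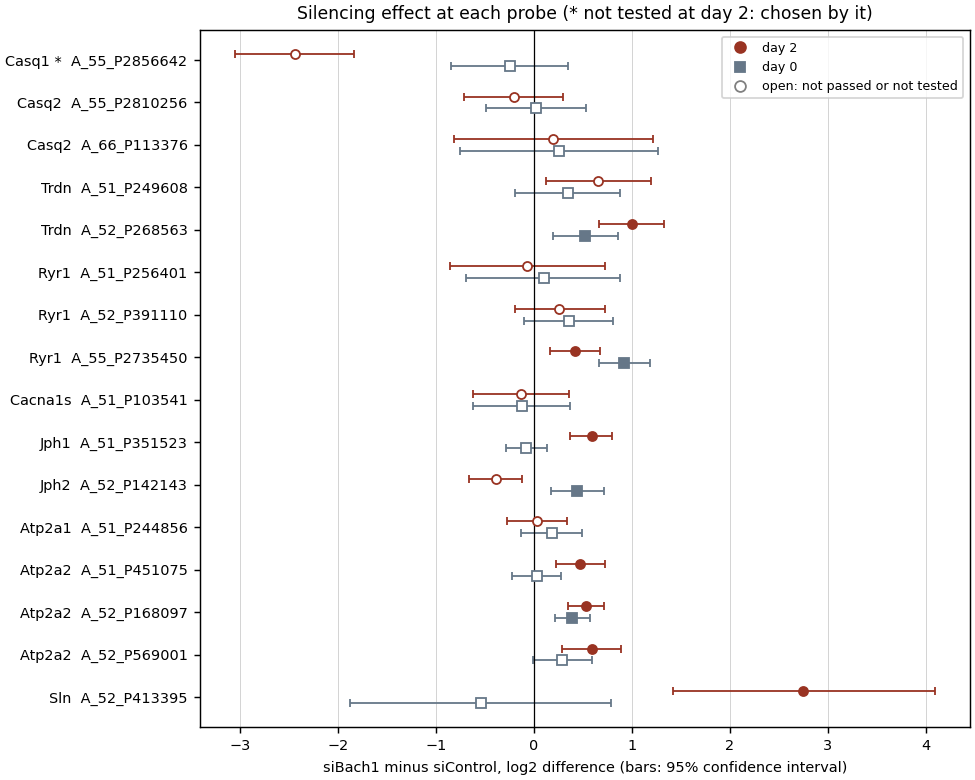
Log2 difference between siBach1 and siControl cells at each probe on day 2 (circles) and day 0 (squares), with 95% confidence intervals from the fit of 12 arrays; filled symbols passed an adjusted p of 0.05, and Casq1 was not tested at day 2. Casq1 is at -2.44 on day 2 and the values of the other genes lie between -0.39 and 1.00, apart from Sln at 2.75, whose filled symbol rests on a siControl group in which 1 of 3 arrays detected it.

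Casq2, the cardiac calsequestrin that immature muscle also expresses, was measured by a pair of probes. The brighter one (A_55_P2810256) read 7.29, 7.24 and 6.97 in siControl and 7.09, 7.01 and 6.78 in siBach1 cells at day 2, after 0.94 to 1.65 and 0.90 to 1.74 at day 0. The groups of the siRNAs overlapped at both days. The day 2 difference was -0.20 (95% confidence interval -0.71 to 0.30, adjusted p = 0.63, limma), and on the second probe (A_66_P113376) it was 0.19 (-0.82 to 1.21, adjusted p = 0.85). The second probe was detected on 1 of 3 arrays in each day 0 group. Casq2 rose 59.7-fold in siControl and 51.1-fold in siBach1 cells on the brighter probe (adjusted p = 3.2e-08 and 4.9e-08, limma).

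RefSeq promoter windows of GRCm38.p6, from 250 bases before to 50 bases after the gene start, were found for 6 of the 10 genes. Those of Casq1, Casq2 and Cacna1s are shown to set Casq1 beside a pair of genes that also rose steeply and whose silencing values at day 2 were -0.20 (the brighter Casq2 probe) and -0.13. Only the 250 bases before the start are printed, from 5′ to 3′ on the strand of the gene. Capitals mark matches to CANNTG (the E-box letters that myogenic factors bind) and to the MEF2 motif.
Casq1, chr1:172219896-172220145, minus strand: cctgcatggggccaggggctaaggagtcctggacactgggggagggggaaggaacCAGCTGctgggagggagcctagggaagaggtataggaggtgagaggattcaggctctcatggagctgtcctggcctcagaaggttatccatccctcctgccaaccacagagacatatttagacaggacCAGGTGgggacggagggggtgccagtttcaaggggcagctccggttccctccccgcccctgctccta
Casq2, chr3:102086165-102086414, plus strand: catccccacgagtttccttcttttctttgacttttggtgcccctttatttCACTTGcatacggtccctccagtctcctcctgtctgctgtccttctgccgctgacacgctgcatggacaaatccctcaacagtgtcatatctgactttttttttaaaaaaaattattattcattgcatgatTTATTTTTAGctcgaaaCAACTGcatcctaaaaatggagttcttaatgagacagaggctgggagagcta
Cacna1s, chr1:136052561-136052810, plus strand: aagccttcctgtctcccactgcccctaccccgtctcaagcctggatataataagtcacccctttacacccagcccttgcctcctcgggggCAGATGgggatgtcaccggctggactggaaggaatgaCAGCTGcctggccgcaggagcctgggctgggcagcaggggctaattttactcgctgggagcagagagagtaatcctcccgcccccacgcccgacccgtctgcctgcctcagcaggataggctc

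Both strands were searched, counting positions from the gene start. CANNTG began at -195 and -67 in Casq1, at -200 and -52 in Casq2 and at -160 and -123 in Cacna1s, and it was found in 72.3% of all 32851 promoter windows. The MEF2 motif was found in Casq2 at -69 and in 3.19% of all windows. The letters TGACNNNGC, the core of the antioxidant response element to which Bach1 and small Maf proteins bind, were found in Cacna1s from -4, and in 12.4% of all windows. They were not in the windows of Casq1, Casq2, Ryr1, Jph2 and Atp2a1. A match is a description of the letters and not a binding site. The MEF2 motif and CANNTG did not overlap in these windows.

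Triadin (Trdn), the membrane protein that links calsequestrin to the release channel, lay above siControl at day 2. Probe A_52_P268563 read 1.59, 1.62 and 1.24 in siControl and 2.53, 2.62 and 2.30 in siBach1 cells at day 2, after -2.31, -2.46 and -2.70 against -1.80, -1.96 and -2.16 at day 0. The siRNA groups did not overlap at either day. The difference was 1.00, or 2.00-fold, at day 2 (standard error 0.15, adjusted p = 0.003) and 0.52 at day 0 (adjusted p = 0.040, limma). The day 0 value no longer passed with quantile normalization (adjusted p = 0.10), with normexp (adjusted p = 0.083), without replicate 1 of siBach1 at either day or of siControl at day 2, or without replicate 2 of either day 0 group or replicate 3 of siControl at day 0 (adjusted p between 0.052 and 0.12). The second Trdn probe (A_51_P249608) gave 0.65 at day 2 with separate groups, which did not pass (adjusted p = 0.11) but did with the replicate number as a block (adjusted p = 0.036).

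Ryr1 is the release channel of the reticulum and was measured by 3 probes that did not behave alike. Probe A_52_P391110 read 3.47, 3.45 and 3.41 in siControl and 3.89, 3.69 and 3.54 in siBach1 cells at day 2, after -0.68 to -0.04 and -0.27 to 0.46 at day 0. The day 2 groups lay apart, yet the difference of 0.26 did not pass (95% confidence interval -0.19 to 0.72, adjusted p = 0.46, limma). The other probes are annotated to cDNA clones and not to a RefSeq transcript.

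Of these, the dim Ryr1 probe A_55_P2735450 read -2.62, -2.21 and -2.25 in siControl and -1.98, -1.81 and -2.05 in siBach1 cells at day 2, after -4.52, -4.51 and -4.49 against -3.60, -3.49 and -3.67 at day 0. The siRNA groups did not overlap at either day. The difference was 0.42 at day 2 (adjusted p = 0.044) and 0.92 at day 0 (adjusted p = 0.00054, limma), with detection on 1 of 3 siControl and 2 of 3 siBach1 arrays at day 0. Under normexp the day 0 value fell to 0.38 and still passed (adjusted p = 0.036). The day 2 call was lost when any single array but siBach1 replicate 3 of day 0 or siControl replicate 2 of day 2 was left out, and under normexp its value was 0.15 (adjusted p = 0.45). Probe A_51_P256401 overlapped in all groups and passed in no comparison, with replicate 3 the lowest array of each group.

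Cacna1s, the voltage sensor, was not separated by silencing at either day. Its probe (A_51_P103541) read 6.14, 6.19 and 6.04 in siControl and 6.15, 5.97 and 5.85 in siBach1 cells at day 2, after 0.79, 0.02 and 0.38 against 0.64, -0.17 and 0.35 at day 0. Both pairs of groups overlapped. The silencing difference was -0.13 at day 2 (95% confidence interval -0.62 to 0.36, adjusted p = 0.77) and -0.12 at day 0 (-0.62 to 0.37, adjusted p = 0.76, limma), and at day 2 quantile normalization turned its sign to 0.03. The rise over 2 days was 52.9-fold in siControl and 52.7-fold in siBach1 cells.

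The junctophilins Jph1 and Jph2, which anchor the reticulum to the transverse tubule, had silencing values that differed between the days in opposite directions, though both calls were lost with no filter on dim probes and on leaving out any of 7 (Jph1) or 8 (Jph2) of the 12 arrays. Jph1 (A_51_P351523) read -1.40, -1.53 and -1.51 in siControl and -0.94, -0.90 and -0.85 in siBach1 cells at day 2, but -3.40, -3.20 and -3.44 against -3.35, -3.59 and -3.36 at day 0. The groups lay apart at day 2 and overlapped at day 0. Jph1 was 1.5-fold higher at day 2 (log2 difference 0.59, standard error 0.095, adjusted p = 0.0042), with a day 0 difference of -0.08 (adjusted p = 0.62, limma), which normexp turned to 0.11.

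For Jph2 (A_52_P142143) the day 0 values were 1.66, 1.37 and 1.81 in siControl and 2.02, 1.92 and 2.22 in siBach1 cells, and the day 2 values 3.92, 4.03 and 4.03 against 3.60, 3.52 and 3.70. The siBach1 arrays thus lay above siControl at day 0 and below it at day 2, without overlap at either. The difference was 0.44 at day 0 (adjusted p = 0.033, limma) and -0.39 at day 2, where it did not pass (95% confidence interval -0.66 to -0.12, adjusted p = 0.068). With the replicate number as a block the day 2 value did pass (adjusted p = 0.020), and Jph2 was then the single partner that was lower. The day 0 call was lost with no filter on dim probes (adjusted p = 0.13) and with the arrays of the comparison alone (adjusted p = 0.11). It was lost too without replicate 1 or 2 of siControl at day 0, replicate 1 or 3 of siBach1 at day 0, or replicate 1 of siBach1 at day 2 (adjusted p between 0.051 and 0.11), and the day 2 value passed without replicate 2 of siControl at day 0 (adjusted p = 0.042).

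Atp2a1, the fast-fibre calcium pump, was likewise not separated by silencing. Its probe (A_51_P244856) read 2.88, 3.15 and 2.83 in siControl and 3.06, 3.14 and 2.75 in siBach1 cells at day 2, after -0.94, -1.14 and -1.03 against -0.67, -0.83 and -1.07 at day 0. The groups overlapped at both days. The day 2 difference was 0.03 (95% confidence interval -0.28 to 0.34, adjusted p = 0.93, limma).

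Atp2a2, the pump of slow fibres and of most other cells, was higher with silencing on all 3 of its probes at day 2. Probe A_51_P451075 read 3.90, 3.68 and 3.67 in siControl and 4.23, 4.36 and 4.04 in siBach1 cells, A_52_P168097 read 0.61, 0.54 and 0.52 against 1.22, 1.05 and 1.00, and A_52_P569001 read 2.06, 1.93 and 2.36 against 2.68, 2.66 and 2.78. None of the 3 probes overlapped between the siRNAs. The differences were 0.47, 0.53 and 0.59 on the log2 scale (adjusted p = 0.025, 0.003 and 0.021, limma), or 1.38-fold, 1.45-fold and 1.5-fold. With no filter on dim probes the first and the third no longer passed (adjusted p = 0.11 and 0.085), and with only the arrays of the comparison they did not pass either (adjusted p = 0.076 and 0.052). The first was lost without replicate 1 or 2 of siBach1 or replicate 2 or 3 of siControl at day 2, and the third without replicate 1 or 3 of siBach1 or replicate 1 or 2 of siControl at day 2 (adjusted p between 0.060 and 0.084). At day 0 A_52_P168097 passed, with a difference of 0.39 (adjusted p = 0.0085). The third probe gave 0.29 at day 0 and passed only with the replicate or the slide as a block (adjusted p = 0.036 and 0.027).

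Sarcolipin (Sln), the inhibitor of the pumps, was bright enough to be detected on every array of a single group, siBach1 at day 2. Its probe (A_52_P413395) read -4.23, -4.27 and -4.38 in siControl and -1.77, -1.39 and -1.46 in siBach1 cells at day 2. At day 0 it read -7.42, -4.38 and -6.41 in siControl and -7.17, -6.57 and -6.09 in siBach1 cells. The day 2 groups lay far apart, and the day 0 arrays were scattered over the range of dim probes. The probe was detected on all 3 siBach1 arrays of day 2, on 1 of 3 siControl arrays at each day and on none of the siBach1 arrays at day 0.

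As a description, the Sln difference at day 2 was 2.75 on the log2 scale, against a siControl group in which 1 of 3 arrays detected the probe. Its size depended on the background correction, and under normexp it was 1.19. With no filter on dim probes, where the choice of probes plays no part, the day 2 difference did not pass (adjusted p = 0.055, limma). From day 0 to day 2, Sln was at least 7.15-fold higher in siBach1 cells with the scanner's own background correction. That bound was set by the dimmest detected signals of the arrays. Over the alternatives run, the log2 difference went down to 1.71, which is below the bound, so the bound holds only for the main processing. In siControl cells the difference of 1.78 lay between groups in each of which 1 of 3 arrays detected it, and it was 1.10 without replicate 1 of day 0 and 0.46 under normexp.

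Most probes of the set were higher at day 2 than at day 0, a comparison in which medium, time and differentiation cannot be told apart. From day 0 to day 2 in siControl cells, 13 of the 15 partner probes were higher, where 24.6% of all tested probes were, and 1 was lower, where 28.7% were. In siBach1 cells the counts were 13 higher, against 23.8%, and 0 lower, against 32.3% (limma), with 0 lower also at an unadjusted p under 0.05 (34.4% of all tested probes) and in the methods' test (32%). The median change of the 15 probes was 2.62 in siControl and 3.68 in siBach1 cells on the log2 scale, with 0.00 and -0.07 over all tested probes. The probes of Sln, Casq2 (A_66_P113376) and Ryr1 (A_55_P2735450) passed the detection filter only through day 2 arrays, and without them 10 of 12 were higher in each, with medians of 3.20 and 3.37. Each partner gene other than Sln had a probe among these 12 that was higher in both. For Cacna1s, Jph1, Jph2 and Atp2a1 it was the only probe of the gene. The fall in siControl cells was on the Atp2a2 probe A_52_P569001, at -0.40 (adjusted p = 0.030), and was lost under quantile normalization (-0.30, adjusted p = 0.067) and without replicate 2 or 3 of siControl at day 0 or replicate 1 or 2 at day 2 (adjusted p between 0.061 and 0.11).

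By size, the rises in siControl cells ran from 5.90 for Casq2, 5.73 for Cacna1s and 5.05 for Casq1, through 3.99 for Atp2a1, 3.98 for Trdn and 3.78 for Ryr1, to 2.62 for Atp2a2, 2.38 for Jph2 and 1.87 for Jph1, on the first probe described for each gene and without Sln. In siBach1 cells the same probes rose by 5.68, 5.72, 2.86, 3.84, 4.46, 3.68, 3.06, 1.55 and 2.53. Under normexp the rises were 1.17 and 1.48 for Jph1, and 3.78 and 1.51 for Casq1. Over the alternatives run, those of Trdn (A_52_P268563) went down to 3.12 and 3.79, and that of Ryr1 (A_52_P391110) in siControl cells to 3.52. As both rises of each gene rest on the same arrays as the silencing values, they are given side by side and not as separate evidence.

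**Figure D3:**
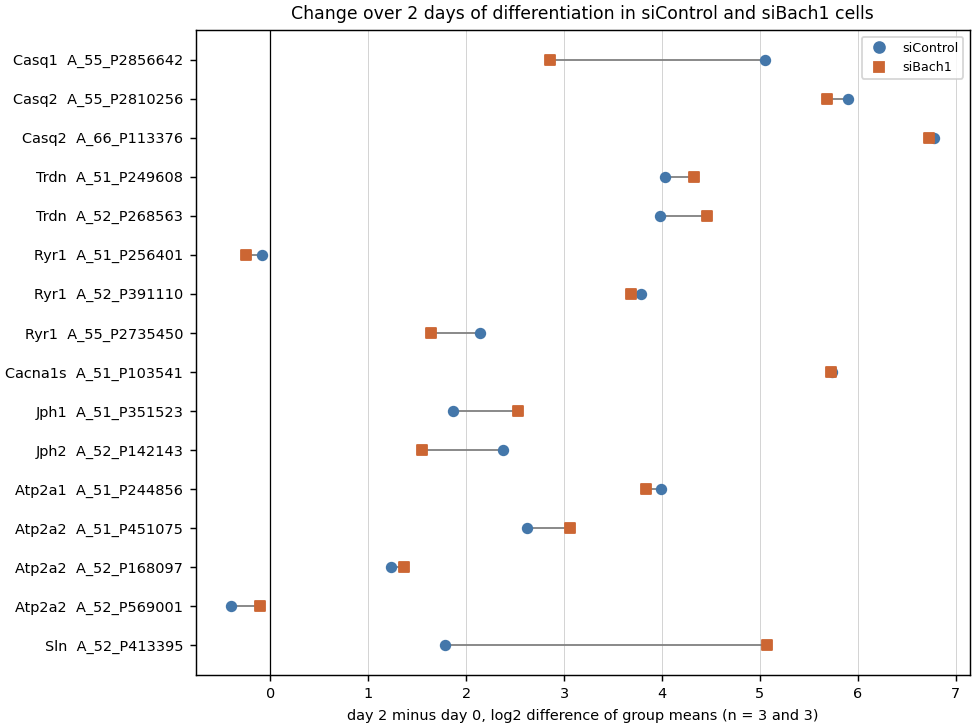
Change from day 0 to day 2 at each probe, as the log2 difference of the means of 3 and 3 arrays, in siControl cells (blue circles) and siBach1 cells (orange squares), joined by a line. Casq1 goes from 5.05 to 2.86 between the siRNAs, while Cacna1s is at 5.73 and 5.72; Sln was detected on 1 of 3 siControl and 0 of 3 siBach1 arrays at day 0, so its points are not measured sizes.

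The difference between the silencing effects of the 2 days was tested for the 15 partner probes. It was higher at day 2 for 1 probe, Jph1, where 2.39% of all tested probes were, and lower for 1 probe, Jph2, where 2.2% were. For Jph1 it was 0.67 (adjusted p = 0.025) and for Jph2 -0.83 (adjusted p = 0.027, limma). Both calls were lost with no filter on dim probes (adjusted p = 0.14 for each), and normexp lowered the Jph1 value to 0.32 (adjusted p = 0.17). The Jph1 call was also lost without any single siBach1 array of day 2, replicate 1 or 2 of siControl at day 0, or replicate 2 of siControl at day 2 or of siBach1 at day 0. The Jph2 call was lost without any single siControl array of day 2, replicate 1 or 2 of siControl at day 0 or of siBach1 at day 2, or replicate 3 of siBach1 at day 0 (adjusted p between 0.050 and 0.071 for both genes). Sln gave 3.30 and did not pass (adjusted p = 0.056, and 0.029 with the replicate number as a block), a value that rests on day 0 groups detected on 1 of 3 and 0 of 3 arrays and supports nothing. The Trdn probe A_52_P268563 gave 0.48 and likewise passed only with a block or under normexp (adjusted p = 0.23, and 0.023 with the replicate block). For Casq1 the corresponding value was -2.19, given as a description. The median of the 15 partner probes was -0.01, and that of all tested probes was -0.07.

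Other genes of calcium handling were taken from a list of 43, of which 41 were on the array and 36 had a tested probe, with 1 probe per gene chosen by its mean signal. Beside the counts of genes stand the shares of all tested probes called the same way. At day 2, 5 of the 36 genes were higher with silencing (Cacna2d1, Asph, Itpr1, Dhrs7c and Stim1), against 5.75%, and 3 were lower (Jsrp1, Pvalb and Stim2), against 6.26%. The median was 0.08, against -0.03 over 15642 genes. At day 0, 7 were higher (Cacna2d1, Asph, Jsrp1, Homer1, S100a1, Itpr2 and Atp2b1), against 8.8%, and 2 were lower (Tmem38a and Stim2), against 8.32%, with a median of 0.17 against 0.08. From day 0 to day 2, 26 of the 36 were higher and 2 lower in siControl cells, against 24.6% and 28.7%, and 23 were higher and 3 lower in siBach1 cells, against 23.8% and 32.3%. One of the higher genes in each, Ryr3, passed the detection filter only through day 2 arrays. For the difference between the days the counts were 1 higher (Itpr1), against 2.39%, and 3 lower (Jsrp1, Pvalb and Atp2b1), against 2.2%.

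All 9 genes of the voltage sensor and the tubule were higher over time in siControl cells, against 24.6% of all tested probes. In siBach1 cells 8 of the 9 were, against 23.8%. For silencing at day 2, Cacna2d1 alone passed on the probe chosen by mean signal, and it was higher, as were 5.75% of all tested probes. This auxiliary subunit of the voltage sensor read 3.23, 3.34 and 3.20 in siControl and 3.78, 3.61 and 3.62 in siBach1 cells at day 2 on probe A_55_P1988699. The groups lay apart, with a difference of 0.42 (adjusted p = 0.023), and the day 0 difference was 0.85 (adjusted p = 0.00033, limma). Of its other tested probes, A_55_P2733132 and A_55_P2869346 also passed at day 2 (0.60 and 0.66, adjusted p = 0.0013 and 0.0012, limma). Over the alternatives run their highest adjusted p was 0.024 and 0.033, though neither passed with an added fold change of 2. Probes A_52_P160543, A_66_P138052 and A_55_P2738122 did not pass at day 2 (0.33, 0.28 and 0.15, adjusted p = 0.073, 0.22 and 0.66). With the replicate number as a block A_52_P160543 did pass (adjusted p = 0.028).

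Of the 17 tested genes of the release site and junction, 2 were higher and 1 lower at day 2, beside 5.75% and 6.26% of all tested probes. Asph, whose locus encodes junctin as well as aspartyl hydroxylase, read 0.98, 0.87 and 1.08 in siControl and 1.45, 1.32 and 1.74 in siBach1 cells on probe A_52_P306351, a difference of 0.53 (adjusted p = 0.028, limma). Its other tested probes, A_52_P625171 and A_55_P2721394, did not pass at day 2 (0.21 and 0.47). The Asph probes also differed over time. A_52_P306351 changed by -0.86 in siControl and -1.37 in siBach1 cells, A_52_P625171 by 1.28 and 1.15, and A_55_P2721394 by 0.34 and 0.24. Which product of the locus each probe reads was not tested. Itpr1, an inositol trisphosphate receptor of the reticulum, read 0.16, -0.01 and 0.41 against 0.72, 0.65 and 1.12 on probe A_51_P269663, a difference of 0.65 (adjusted p = 0.017). Jsrp1, a junctional protein that binds the voltage sensor, was lower by a small margin, at 7.51, 7.56 and 7.52 against 7.25, 7.23 and 7.22 (difference -0.30, adjusted p = 0.034) on probe A_55_P2037141. Under quantile normalization this value was -0.13 (adjusted p = 0.34), and the other Jsrp1 probe, A_51_P191262, overlapped and did not pass (-0.12, adjusted p = 0.39). Probes A_52_P306351 of Asph, A_51_P269663 of Itpr1 and A_55_P2037141 of Jsrp1 did not overlap between the siRNAs.

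Dhrs7c, a dehydrogenase of the reticulum membrane, was higher with silencing at day 2 on both of its probes that siControl arrays of that day detected in full. On A_51_P188993 it read 0.60, 0.48 and 0.06 in siControl and 2.56, 2.73 and 2.70 in siBach1 cells, a 4.88-fold difference (adjusted p = 0.0019, limma). On the brightest probe, A_55_P1994339, the difference was 0.84 (adjusted p = 0.032). The groups of the first probe did not overlap. A further probe, A_55_P2616801, entered the tested probes only through the siBach1 arrays of day 2, and its difference of 2.31, or 0.95 under normexp, is given as a description.

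In the group of 8 tested genes for buffering, entry and extrusion, 1 was higher and 2 were lower at day 2, beside 5.75% and 6.26% of all tested probes. Pvalb, the cytosolic calcium buffer parvalbumin of fast fibres, read 0.09, 0.25 and 0.52 in siControl and -0.67, -0.50 and -0.78 in siBach1 cells (difference -0.94, adjusted p = 0.0028, limma). Stim1 and Stim2, the reticulum's calcium sensors for store-operated entry, went in opposite directions. Stim1 read 2.61 to 3.0 against 3.17 to 3.66 on probe A_55_P1969750 (0.62, adjusted p = 0.015). Stim2 read 4.19, 4.09 and 4.22 against 3.40, 3.42 and 3.18 on probe A_55_P2805745 (-0.83, adjusted p = 0.0036), and it was lower at day 0 too (-1.50, adjusted p = 6.2e-05). The groups of Pvalb, Stim1 and Stim2 did not overlap at day 2. Over the alternatives run, the highest adjusted p of the day 2 differences was 0.034 for this Stim2 probe and 0.024 for Dhrs7c A_51_P188993. It was between 0.062 and 0.34 for Dhrs7c A_55_P1994339 and for the first probe given of Cacna2d1, Asph, Itpr1, Jsrp1, Pvalb and Stim1.

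**Figure D4:**
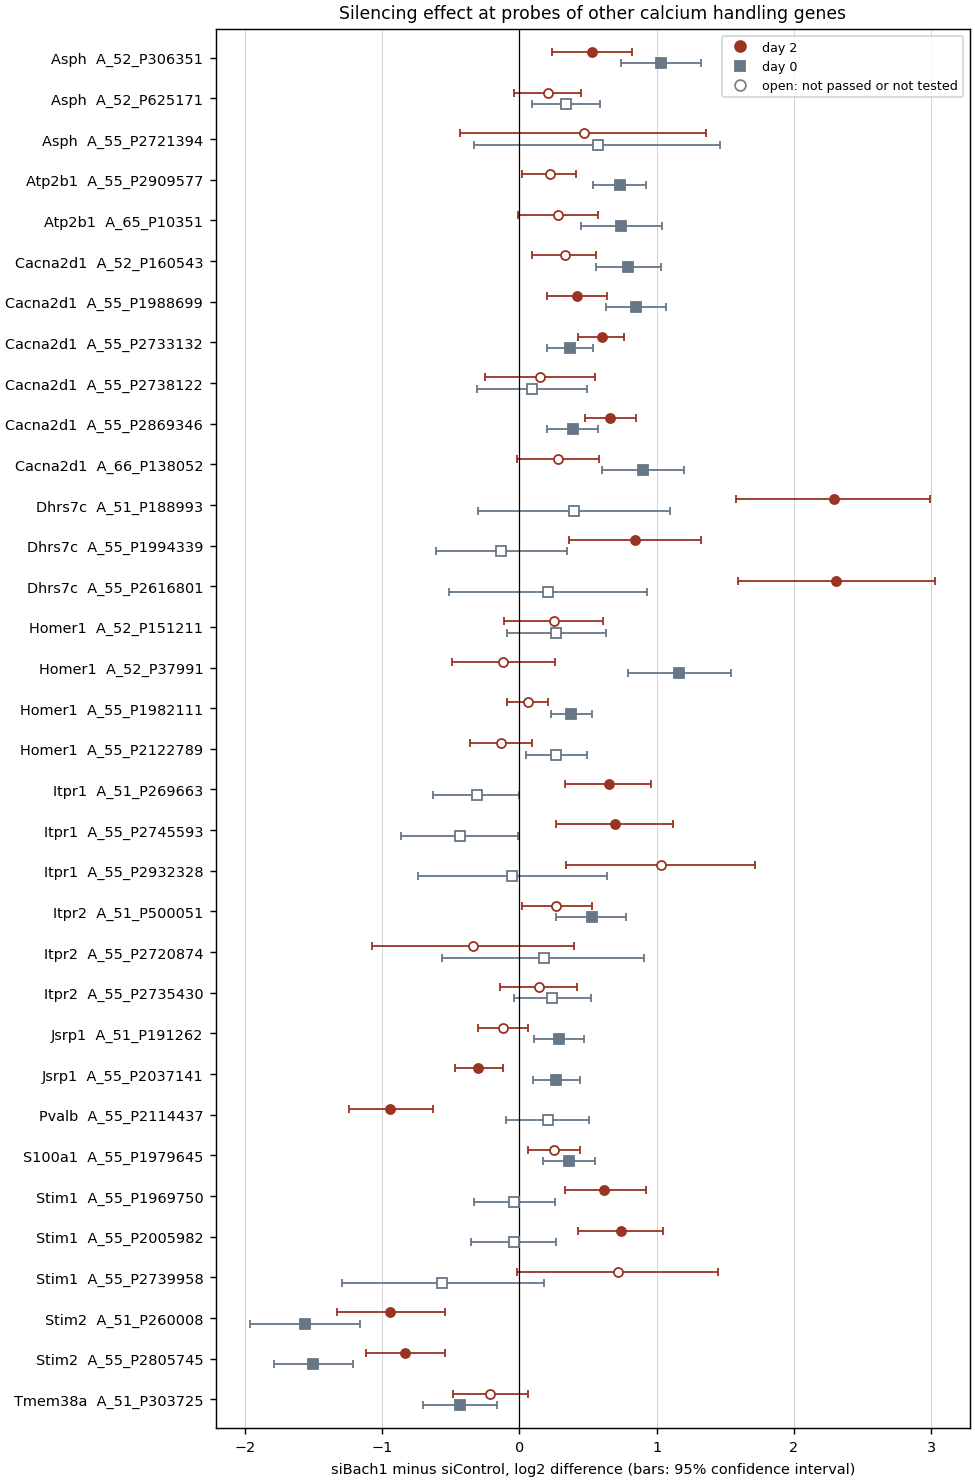
Log2 difference between siBach1 and siControl cells on day 2 (circles) and day 0 (squares) at the tested probes of the listed calcium handling genes named in the text, with 95% confidence intervals from the fit of 12 arrays; filled symbols passed an adjusted p of 0.05. Dhrs7c reaches 2.31 on day 2, at a probe that 1 of 3 siControl arrays detected, and Stim2 is below 0 at both days, down to -1.56 at day 0.

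The genes whose probes ran most like Casq1 over the 12 arrays were Cops8 (Pearson r = 0.992), Eno3 (0.990), Ly6c1 (0.988), Popdc2 (0.987) and Atat1 (0.986). These values describe 12 arrays that fall into 2 days and share 2 slides, and they carry no test. Eno3, the muscle enolase, rose by 0.89 in siControl and 0.51 in siBach1 cells on the log2 scale and was -0.44 with silencing at day 2. Popdc2, a membrane protein of striated muscle, rose by 2.78 and 1.70 and was -1.44 with silencing at day 2. As they were picked for their likeness to Casq1, their silencing values are descriptions.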

How the data were processed

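Each of 12 RNA samples of C2C12 cells was hybridized to a one-colour Agilent mouse array of 62976 spots on 2 slides. The authors deposited each array's scanner output, whose processed signal is a background-subtracted intensity from Agilent Feature Extraction (version 9.1 in the submitters' processing notes, while the scanner files name a later version), and a table with raw intensities and normalized log2 values. These deposited log2 values are the signal minus the array's 75th percentile and the probe's median over arrays, as checked against the scanner files, and gave the probes their gene symbols. The table holds 56745 probes. GeneSpring is named in the methods for the analysis, with Student's t-test at 0.05.

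Control spots and 76 to 110 outlier spots per array were removed, log2 values of repeated spots were averaged, and the 75th percentile was subtracted. A single limma fit (version 3.58.1, R 4.3.3) held the 4 groups without a block, and all p-values were adjusted by Benjamini-Hochberg over the 29664 tested probes. The number of arrays limits the precision. The code was tested on simulated data.

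Replicates 1 and 2 lay on one slide and replicate 3 on the other, and each group had its own column of positions on both, so that position and group cannot be told apart. Arrays with the same replicate number deviated together in all 18 pairs (correlation 0.142 to 0.595, above the limit of 0.1), from which the pairing is taken, and a fit with the replicate number as a block was an alternative. P-values given without a block leave this pairing out.

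The genes, the list of 43 calcium handling genes, the marker lists and the alternatives were chosen with earlier results of these data known. All probes of the 10 genes were named. Of the list, genes past an adjusted p of 0.05 in a silencing comparison or in the difference between days were named, up to 10 per comparison, and of all other genes the 5 most correlated with Casq1. Alternatives were quantile normalization, normexp with an offset of 50 on the median signal, the authors' normalized values, no filter or a filter on all 12 arrays, a block for replicate or for slide, a fit of the compared arrays alone, limma-trend with a robust prior, the t-test of the methods before and after adjustment, an added fold change of 2, and leaving out each array in turn. No probe or protein sequences were used. Coordinates are given only for the RefSeq promoter windows of GRCm38.p6 and not for probes, since the scanner names an earlier mouse build.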

Additional observations from a re-analysis of the deposited data

Results flagged for a closer look

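The silencing effect differed between day 2 and day 0 (limma, adjusted p under 0.05 for the difference itself) at 10 probes of the genes described, and each value here is the effect at day 2 minus that at day 0 on the log2 scale. Among the 10 genes of the set, it was 0.67 for Jph1 and -0.83 for Jph2. Among other calcium handling genes it was 0.96 and 1.13 at probes A_51_P269663 and A_55_P2745593 of Itpr1, -1.14 for Pvalb, -0.57 for Jsrp1 probe A_55_P2037141 and -0.51 for Atp2b1 probe A_55_P2909577. For Dhrs7c it was 1.88 at A_51_P188993 and 2.10 at A_55_P2616801. Neither probe was detected on any array of day 0, and the second was detected in full only in siBach1 cells at day 2, so these are not measured sizes and show no difference between the days. Homer1, a scaffold protein, gave -1.28 at A_52_P37991, 1 of its 4 tested probes.

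Most of these calls were lost under other settings. Of the 12 arrays left out singly, 11 ended the call of Atp2b1 and of Dhrs7c A_51_P188993, 9 that of Itpr1 A_55_P2745593, and 8 those of Itpr1 A_51_P269663, Dhrs7c A_55_P2616801 and Jph2. The Jph1 call was ended by 7 of them, that of Jsrp1 by 3 and that of Homer1 by 2. With no filter on dim probes none of the 10 passed. Under normexp Dhrs7c A_55_P2616801 gave 0.71 (adjusted p = 0.055), Itpr1 A_55_P2745593 gave 0.26 (adjusted p = 0.31), Jph1 gave 0.32 (adjusted p = 0.17) and Atp2b1 gave -0.43 (adjusted p = 0.054). Under quantile normalization the calls were lost for Jsrp1 (-0.32, adjusted p = 0.15), Itpr1 A_55_P2745593 (1.10, adjusted p = 0.074), Dhrs7c A_51_P188993 (2.11, adjusted p = 0.061) and Atp2b1 (-0.42, adjusted p = 0.057).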

How the results depend on the processing

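The values for Casq1 at day 2, for its difference between days and for Bach1 at both days kept their direction under every alternative run, whereas that of Casq1 at day 0 did not. As Casq1 was chosen by its fall on the day 2 arrays, its kept direction there is a description and supports nothing. Leaving out each array in turn gave -2.62 to -2.31 for Casq1 at day 2 and -2.48 to -1.98 for its difference between days, and -1.91 to -1.71 and -1.99 to -1.95 for Bach1 at day 0 and day 2.

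Member probes called with silencing at day 2 (7 higher, 0 lower in the analysis reported) became 3 higher with no filter, 4 with only the arrays of the comparison, 2 by the adjusted t-test (Jph1 and Sln) and 1 with a fold change of 2 (Sln). There was 1 lower with the replicate block, the slide block, the robust prior and the unadjusted t-test. At day 0 the 4 higher became 1 with no filter, 2 with only the comparison's arrays and by the adjusted t-test, and 0 with the fold change. The 1 lower in siControl over time became 0 under quantile normalization, no filter, only the comparison's arrays, both t-tests and the fold change. For the difference between days, 1 higher became 2 under quantile normalization and normexp, 3 with either block, and 0 with no filter or the fold change, and 1 lower became 0 with no filter and the fold change.

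For the listed calcium handling genes at day 2, 5 higher became 0 with no filter, by the adjusted t-test and with the fold change, 2 with only the comparison's arrays and 10 by the unadjusted t-test. The 3 lower became 5 with either block, 6 by the unadjusted t-test and 0 with the fold change. At day 0, 7 higher became 4 with no filter, 11 with the replicate block and 1 with the fold change, and 2 lower became 1 under quantile normalization, no filter, only the comparison's arrays, the adjusted t-test and the fold change, and 4 by the unadjusted t-test. Over time, 2 lower in siControl became 4 with either block and 0 with the fold change, and 3 lower in siBach1 became 1 with the fold change. For the difference between days, 1 higher became 3 under normexp, 5 with either block, 4 with the robust prior and 0 with no filter or the fold change, and 3 lower became 5 with either block, 1 under quantile normalization or with the fold change, and 0 with no filter.

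The shares of all tested probes called moved as well. Higher at day 2 went from 5.75% to 1.26% with no filter, 3.74% with only the comparison's arrays, 1.59% by the adjusted and 11.3% by the unadjusted t-test, and 1.52% with the fold change. With the replicate and slide blocks it was 9.78% and 9.9%. Lower at day 2 went from 6.26% to 11.6% and 11.9% with the replicate and slide blocks, 7.61% with the robust prior, 12.9% by the unadjusted t-test and 0.651% with the fold change. Higher at day 0 went from 8.8% to 1.83% with no filter, 5.59% with only the comparison's arrays, 4.85% by the adjusted t-test, 16.2% with the replicate block and 0.809% with the fold change. Lower at day 0 went from 8.32% to 2.55% with no filter, 5.7% by the adjusted and 12.5% by the unadjusted t-test, and 1.98% with the fold change. Lower over time in siControl went from 28.7% to 33% and 33.1% with the replicate and slide blocks, 13.1% with no filter and 9.46% with the fold change. In siBach1 lower over time went from 32.3% to 9.59% with the fold change. For the difference between days, 2.39% higher and 2.2% lower became 0.0601% and 0.0265% with no filter, 5.16% and 7.86% with the replicate block, 5.25% and 8.44% with the slide block, and 0.981% and 0.458% with the fold change.

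With arrays left out in turn, member probes at day 2 ran from 4 to 7 higher and 0 to 1 lower, and at day 0 from 2 to 4 higher with 0 lower. Over time they ran from 12 to 13 higher and 0 to 1 lower in siControl, with 13 higher and 0 lower in siBach1 each time, and for the difference between days from 0 to 1 each way. Listed genes ran from 1 to 5 higher and 2 to 4 lower at day 2, 5 to 8 and 1 to 2 at day 0, 25 to 26 and 2 in siControl, 23 to 24 and 2 to 3 in siBach1, and 0 to 3 and 1 to 3 for the difference between days. Over the same fits, the shares of all tested probes ran from 3.2% to 6.45% higher and 2.91% to 6.97% lower at day 2. At day 0 they ran from 4.98% to 8.99% and 5.93% to 8.83%. Over time they ran from 21.7% to 26.1% and 25.8% to 29.5% in siControl, and 21% to 25.2% and 29% to 32.6% in siBach1. For the difference between days they ran from 0.961% to 2.34% and 0.654% to 1.57%.

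Signs turned only for values that had not passed. Under normexp the day 0 values became 0.06 for Casq1, -0.04 for Casq2 A_55_P2810256, 0.11 for Jph1 and -0.01 for Atp2a2 A_51_P451075, and the difference between days 0.02 for Casq2 A_66_P113376. Under quantile normalization the values became -0.02 at day 0 and 0.23 between days for Casq2 A_66_P113376, 0.02 between days for Ryr1 A_52_P391110, 0.03 at day 2 and 0.15 between days for Cacna1s, and 0.09 over time in siBach1 for Atp2a2 A_52_P569001. Without 1 array, silencing at day 0 ran from -0.46 to 0.03 for Casq1, -0.21 to 0.21 and -0.22 to 0.77 for the Casq2 probes, -0.10 to 0.38 for Ryr1 A_51_P256401, -0.31 to 0.10 for Cacna1s, -0.03 to 0.11 for Atp2a2 A_51_P451075 and -1.22 to 0.30 for Sln. At day 2 it ran from -0.05 to 0.14 for Atp2a1 and -0.32 to 0.27 for Ryr1 A_51_P256401. That Ryr1 probe ran from -0.28 to 0.17 over time in siControl and -0.53 to 0.10 in siBach1. The difference between days ran from -0.42 to 0.01 and -0.58 to 0.41 for the Casq2 probes, -0.45 to 0.18 and -0.24 to 0.13 for Ryr1 A_51_P256401 and A_52_P391110, and -0.23 to 0.18 for Cacna1s. Apart from the counts and calls given here and in the results, the replicate block changed no other call of the 10 genes. The cause of these changes was not tested.

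The counts of member probes here include Sln. Dim signal limits Sln, Casq1 at day 0, Casq2 A_66_P113376 and Ryr1 A_55_P2735450. Scalings moved the median of all probes by less than 0.1.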
